A study of Homo sapiens with 11 samples.

Results

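A total of 386 sites in 3' UTRs had a peak of the ZFP36L2 immunoprecipitate over input in both THP1 replicates and no overlapping peak over input in MOLM13 cells. They were the 3' UTR peaks of THP1 replicate 1 that overlapped a same-strand peak of THP1 replicate 2 by 1 base or more and overlapped none of either MOLM13 replicate. They made up 386 of the 3113 peaks in 3' UTRs of THP1 replicate 1 and 386 of the 2374 that replicate 2 also held, among 67083 peaks in the 4 input tables. Touching sites joined into 344 regions, on 314 genes. The sites were chosen by their log2 folds over input and their p-values, which decide whether a peak is in a table, so these are described below and not tested.

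ZFP36L2 belongs to the TIS11 family of zinc finger proteins, which recognise AU-rich elements of mRNA, mostly in the 3' UTR, and recruit the deadenylation machinery, so that the mRNA is degraded. Family members restrain mRNAs that are induced briefly in myeloid cells, chemokines and immediate early genes among them. A 3' UTR site found in a single line can stand for an mRNA that the other line does not make, or for an mRNA that is present there with less protein on it. Clusters of the MOLM13 immunoprecipitates at the sites are therefore given below, though they do not separate RNA level from binding.

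MOLM13 and THP1 are established human cell lines of acute myeloid leukaemia with monocytic features, and no treatment is named for either. Neither carries an engineered allele in the labels. The assay was eCLIP, in which protein is crosslinked to RNA by ultraviolet light (here 254 nm, 400 mJ/cm2), the RNA is cut with RNase I, and the complexes are pulled down, by anti-ZFP36L2 or control IgG in these libraries, and cut from a gel at about 30 to 105 kDa. There were 2 ZFP36L2 immunoprecipitates and 2 IgG libraries per line, 2 inputs for MOLM13 and 1 for THP1, and input was 2% of the sample taken before the immunoprecipitation. Library steps were run in duplicate and no label names separate cultures, so the spread between replicates may be technical.

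A site is called enriched where its log2 fold and its −log10 p both reach 3, the limits that the input tables themselves show. The fold and p of each peak or cluster are the authors' values from their deposited tables. A cluster is a stretch where reads of an immunoprecipitate piled up, and the IgG lists give every cluster whether enriched or not, 153162 and 143910 in THP1 and 140287 and 182486 in MOLM13. A missing cluster means that none was listed, not that no read was present. The read depth is unknown, and 18.0% to 19.8% of the clusters of each list shared 1 fold value. That value was −0.74 and −0.04 in THP1 and 0.28 and −1.01 in MOLM13. Median log2 folds over IgG of all clusters were 0.0019 and 0.38 in THP1 and 0.28 and −0.60 in MOLM13. Clusters of either strand, unlike the same-strand gene counts below, lay on 7 of 10 monocyte and myeloid marker genes in each of the 4 immunoprecipitates. They lay on 0 or 1 of 8 lymphoid genes and on 1 or 2 of 8 erythroid and megakaryocytic ones. CD14 and FCGR1A had none in any library, ITGAM had none in MOLM13 and MPO none in THP1. Folds are given for replicate 1 and then replicate 2, and coordinates are 1-based on hg38.

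Over input, by the lower of the THP1 replicates, the highest site lay in the mRNA of the neutrophil chemokine CXCL1, followed by ZNF611, GPSM1, CDYL2, ADAMTS4 and SERPINB2. CXCL1 reached log2 folds over input of 6.74 and 7.10 in THP1 (chromosome 4, 73870647 to 73870720, plus strand). Such folds were rare among the sites. The median was 3.86 in replicate 1 and 3.84 in replicate 2, with ranges of 3.01 to 7.35 and 3.0 to 7.53. By the lower of the 2 replicates, 91 of 386 sites reached a log2 fold of 4, 21 reached 5 and 7 reached 6. Over all clusters, 12.6% and 13.1% were in the THP1 input tables, the contrast that the rule used. Folds over input of the 386 sites had r = 0.525 and rho = 0.372 between the THP1 replicates, a description across sites that share libraries. Both replicates may rest on the same input library.

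**Figure D1:**
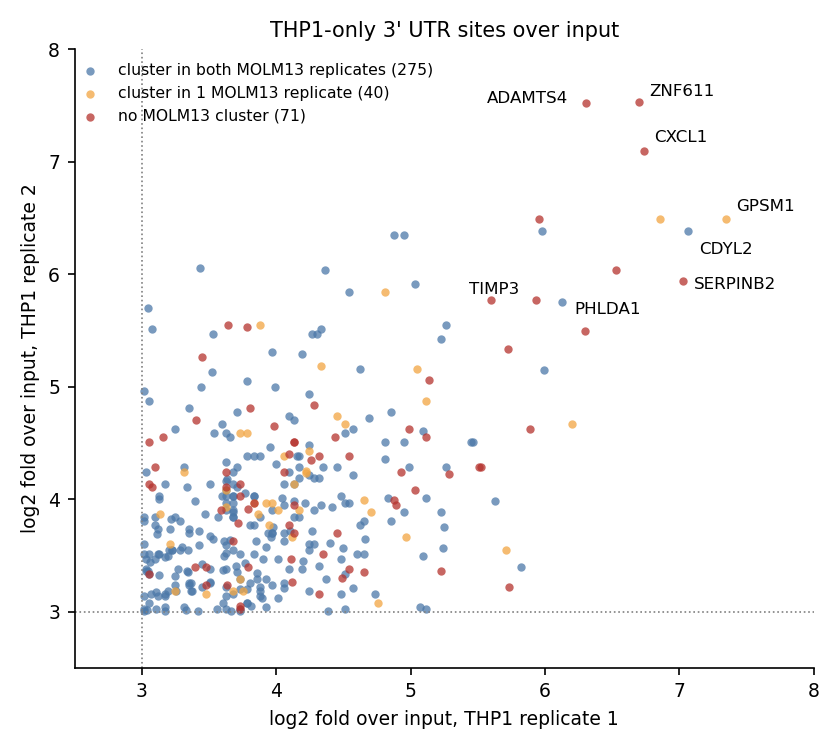
Log2 fold over input of the 386 sites in THP1 replicate 1 (x axis) and replicate 2 (y axis), 1 point per site, with dotted lines at the limit of 3. Colours give the MOLM13 replicates in which a cluster was listed at the site, and most sites above 5.5 in both replicates had none or 1.

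Sites of THP1 alone were a larger share of the weaker THP1 sites than of the stronger ones. Of the reproducible 3' UTR sites with a lower log2 fold from 3 to 3.5, 169 of 715 (23.6%) had no MOLM13 peak. The share was 20.8% from 3.5 to 4, 11.1% from 4 to 5, 5.38% from 5 to 6 and 4.27% (7 of 164) from 6 upwards. The 1988 reproducible THP1 sites with a MOLM13 peak had median log2 folds over input of 4.41 and 4.29 in THP1. Since the tables stop at 3, a MOLM13 value below it is not known. The classes use the folds that chose the sites, and the same limit of 3 decided the MOLM13 peaks. The trend is therefore partly set by the choice of sites, and it was not tested.

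**Figure D2:**
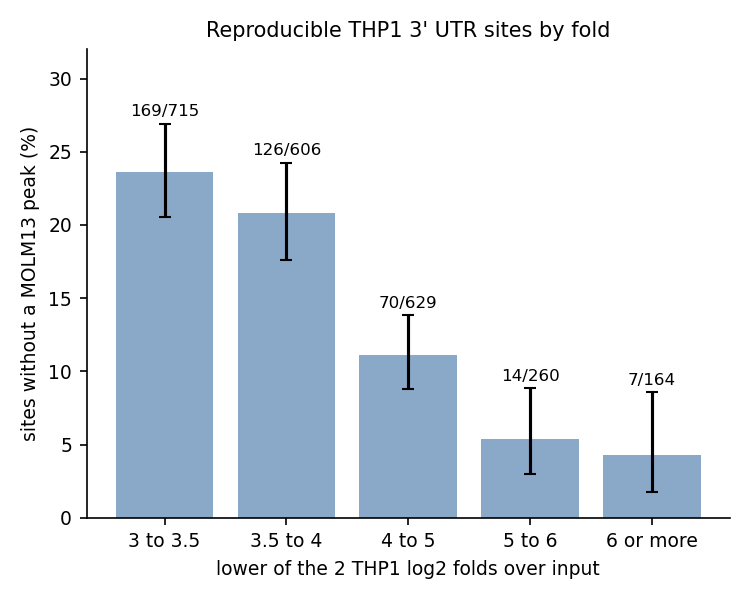
Share of reproducible THP1 3' UTR sites without a MOLM13 peak (y axis, percent) by the lower of the 2 THP1 log2 folds over input (x axis). Bars carry exact 95% binomial intervals, which cover counting error only and treat touching sites as separate, with the counts above them. The share goes from 23.6% in the lowest class to 4.27% in the highest.

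Just inside the limits stood SLC39A9 (3.01 and 3.0), PPP4R2 (3.66 and 3.0), EPC2 (3.42 and 3.0) and KPNA4 (3.17 and 3.0). Just outside stood reproducible THP1 sites that a MOLM13 replicate 2 peak of 3.0 alone kept out, 2 on NAB2 (3.83 and 3.07, and 3.44 and 3.06), 1 on MR1 (5.01 and 3.16) and 1 on RFLNB (3.49 and 3.78). Altogether 386 sites, by coincidence the same number, were kept out by 1 MOLM13 replicate alone. Without MOLM13 replicate 1 the count was 557, and without MOLM13 replicate 2 it was 601. Without the match to THP1 replicate 2 it was 757. From the 3' UTR peaks of THP1 replicate 2, without a match to replicate 1, it was 783. With a log2 fold of at least 4 in both THP1 replicates it was 91.

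At most of the sites the MOLM13 immunoprecipitates did have reads. A MOLM13 cluster overlapped 275 of 386 sites in both replicates (71.2%, exact 95% interval 66.4 to 75.7) and 40 in 1 replicate (10.4%). No cluster was listed at 71 sites (18.4%, 14.7 to 22.6), on 57 genes. Over all clusters of THP1 replicate 1, 37.7% met a MOLM13 cluster in both replicates and 42.4% in neither. Of the 1988 THP1 sites with a MOLM13 peak, 1982 had clusters in both, as their choice nearly fixes. Among the 91 sites with a log2 fold over input of at least 4, clusters in both MOLM13 replicates were found at 53.8% and none at 30.8%. Whether reads at a site reflect RNA level or binding cannot be told apart here, since folds over input below the limit are not in the MOLM13 tables.

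The 71 sites without a MOLM13 cluster were of different kinds. For 31 of them the whole gene, taken by its RefSeq span and strand, had no MOLM13 cluster in either replicate. A further 35 lay on genes with MOLM13 clusters and no peak over input, 2 on genes with a peak outside the 3' UTR and 3 on genes with another 3' UTR peak. A MOLM13 cluster lay within 1000 bases of 19 of the 71 sites.

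Of the 314 genes, 28 (8.92%) had no MOLM13 cluster anywhere. Among 4612 genes with any reproducible THP1 peak the share was 2.58%, and lack of a MOLM13 cluster is favoured by the rule. The 28 included the phosphodiesterase gene PDE4B, which had 83 and 69 clusters in the THP1 replicates. ADGRA3 had 57 and 72, MKX 53 and 50, SLAIN1 20 and 23 and ZNF264 11 and 18. CXCL1, ADAMTS1, ADAMTS4, SERPINB2, EGR3, TWIST1, FOXD1, WNT7B, RGMA, MYOF, CKAP4, CAMK2N1, ADCY1, ADD2, APLP1, C12orf75, CASKIN1, PRELID2, SV2A, TMEM169, TMOD2, UNCX and ZNF611 were the others. Long genes with few MOLM13 clusters, picked after their values were seen, were PID1 (172 and 186 in THP1, 1 and 2 in MOLM13), NAV3 (171 and 163, 1 and 3) and FOXP2 (104 and 78, 1 and 1).

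Most genes of the sites had clusters in both lines. MOLM13 clusters without a peak over input were found on 122 genes (38.9%), a MOLM13 peak outside the 3' UTR on 57 (18.2%) and a MOLM13 peak elsewhere in the same 3' UTR on 107 (34.1%). On 75 genes a reproducible THP1 3' UTR site with a MOLM13 peak stood beside the THP1 site. In both MOLM13 replicates the cluster count was below both THP1 counts on 153 genes (48.7%, against 23.2% of the 4612 genes) and above both on 39 (12.4%, against 24.5%). Lower MOLM13 counts are favoured by the rule, so these shares are a description. CELF2, an RNA-binding splicing regulator, had 53 and 62 clusters in THP1 and 116 and 163 in MOLM13. These counts cover the whole gene span, introns included, and do not give the level of the mature mRNA.

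**Figure D3:**
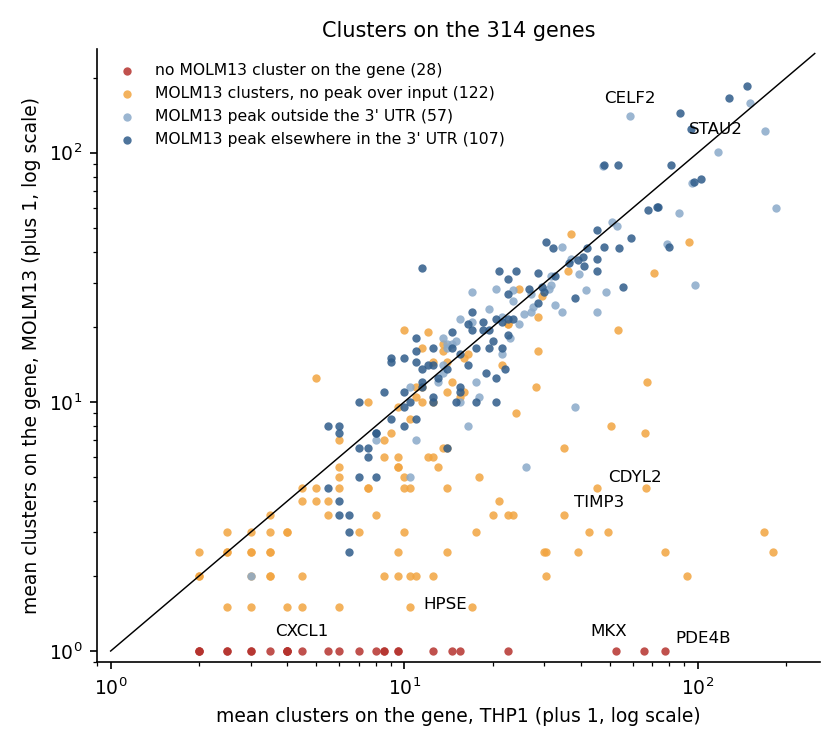
Mean number of clusters per gene in THP1 (x axis) and MOLM13 (y axis), each plus 1 and on a log scale, for the 314 genes, with the line of equal counts. Colours give what MOLM13 held on the gene, and PDE4B and MKX lie far right on the floor of no MOLM13 cluster while CELF2 and STAU2 lie above the line.

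Of the chemokine, cytokine and receptor genes, CXCL1 had 3 sites, which were all of its clusters in each THP1 replicate. Its highest site had log2 folds over IgG of 5.08 and 5.51, and the touching site at 73870721 to 73870789 had 5.28 and 4.45. The third, at 73871033 to 73871071, had 3.64 and 5.55 against input and 2.98 and 3.55 against IgG. No cluster was listed on CXCL1 in MOLM13. CCL2, the monocyte chemoattractant, had 4.45 and 4.29 against input and 3.20 and 3.28 against IgG in THP1 (chromosome 17, 34256833 to 34256911), and 0.28 and −0.60 over IgG in MOLM13. The THP1 values lay above both MOLM13 values. Both MOLM13 values had a −log10 p of 0, and 0.28 is the fold most common in the replicate 1 list.

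PTGS2, the inducible cyclooxygenase, had 3.92 and 3.96 against input and 2.68 and 2.96 against IgG in THP1. MOLM13 listed a cluster there in replicate 2 alone, at 0.57. The chemokine gene CXCL2 had 3' UTR peaks over input in both lines. Its site at chromosome 4, 74097376 to 74097395, was without a MOLM13 peak, with 3.63 and 4.08 over input but 1.38 and 3.08 over IgG. CSF2RB, the shared beta subunit of the GM-CSF and related receptors, also had 1 THP1 3' UTR site that met a MOLM13 peak, in replicate 1. Its site of THP1 alone had 3.75 and 3.19 over input, 3.83 and 2.32 over IgG, and −0.43 in the MOLM13 replicate with a cluster. Of these sites of THP1 alone, the 2 touching ones on CXCL1 were enriched over IgG in both THP1 replicates. CCL2 reached the fold of 3 in both but had −log10 p of 2.53 and 2.54 over IgG, so it was enriched in neither.

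Several named genes encode proteases or protease inhibitors, put together here after their values were seen. ADAMTS4, an aggrecan-cleaving metalloproteinase, had 6.31 and 7.52 against input and 4.48 and 6.52 against IgG (chromosome 1, 161190746 to 161190907). SERPINB2, an inhibitor of urokinase, had 7.03 and 5.94 against input and 4.78 and 4.94 against IgG (chromosome 18, 63903578 to 63903680), at the gene's single THP1 cluster. ADAMTS1, a metalloproteinase related to ADAMTS4, was lower, with 3.73 and 4.02 over input but 1.49 and 3.02 over IgG, and was enriched over IgG in neither replicate. None of these 3 genes had a MOLM13 cluster.

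TIMP3, a metalloproteinase inhibitor, had 4 sites, all without a MOLM13 cluster. Its highest, at chromosome 22, 32862906 to 32862938, had 5.93 and 5.77 against input and 4.69 and 5.09 against IgG. The touching site at 32862939 to 32863021 had 5.14 and 5.06 against input and 4.80 and 6.14 against IgG. All 4 were enriched over IgG in both replicates, the lowest fold being 3.03. TIMP3 as a whole had 29 and 39 clusters in THP1 and 1 and 4 in MOLM13.

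HPSE, which encodes heparanase, had 5 sites, the most of any gene together with FCER1G and UHMK1. Its folds over input were between 3.67 and 5.89, and over IgG between 1.28 and 3.62. MOLM13 replicate 2 listed 1 cluster on HPSE, at −2.01 over IgG, and replicate 1 none. CST3, the cysteine protease inhibitor cystatin C, had 5.23 and 5.42 against input and 3.98 and 3.42 against IgG in THP1 (chromosome 20, 23629445 to 23629539). In MOLM13 its site had clusters in both replicates with 1.02 and −0.72 over IgG.

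Among regulators of transcription, the chromodomain gene CDYL2 had the highest folds over IgG of all sites by the lower replicate, 5.82 and 5.38, with 7.07 and 6.39 over input (chromosome 16, 80603590 to 80603668). MOLM13 had clusters there with 1.87 and 1.10 over IgG, below both THP1 values. ZNF611 had 6.70 and 7.53 against input and 4.13 and 6.53 against IgG (chromosome 19, 52703096 to 52703230), with no MOLM13 cluster. ZNF605 had 5.99 and 5.15 over input, 4.75 and 5.14 over IgG, and 1.70 and 1.86 over IgG in MOLM13. Zinc finger genes named ZNF made up 10 of the 314 genes, and solute carrier genes named SLC another 10.

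TWIST1, a helix-loop-helix factor, had 5.73 and 5.33 against input and 3.48 and 5.92 against IgG, and the homeobox gene MKX had 4.12 and 3.26 against input and 5.20 and 5.26 against IgG, both without a MOLM13 cluster. HOXA13, a homeobox factor, carried 4 sites, the highest with 5.63 and 3.98 against input and 4.38 and 4.57 against IgG. MOLM13 had 0.70 and 0.99 over IgG there. ZEB1, a transcriptional repressor, had 5.73 and 3.22 against input and 3.49 and 3.80 against IgG with no MOLM13 cluster at the site.

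Immediate early genes included PHLDA1, EGR3, KLF2 and JUN. PHLDA1 had 6.12 and 5.75 against input and 3.88 and 3.17 against IgG in THP1, where MOLM13 had 0.28 and 0.86 against IgG (chromosome 12, 76029730 to 76029835). EGR3, a zinc finger factor, had 3.72 and 3.79 over input, 3.06 and 3.79 over IgG, and no MOLM13 cluster. The AP-1 subunit JUN had 3.36 and 3.19 over input but 2.12 and 2.18 over IgG in THP1 and 0.70 and 1.10 in MOLM13. KLF2, a factor of quiescence in leukocytes, had another peak in MOLM13, and its highest THP1 site had 4.26 and 3.72 over input, 2.43 and 4.72 over IgG, and 2.02 and 0.72 in MOLM13. PHLDA1 and EGR3 were enriched over IgG in both THP1 replicates, KLF2 in replicate 2 and JUN in neither.

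**Figure D4:**
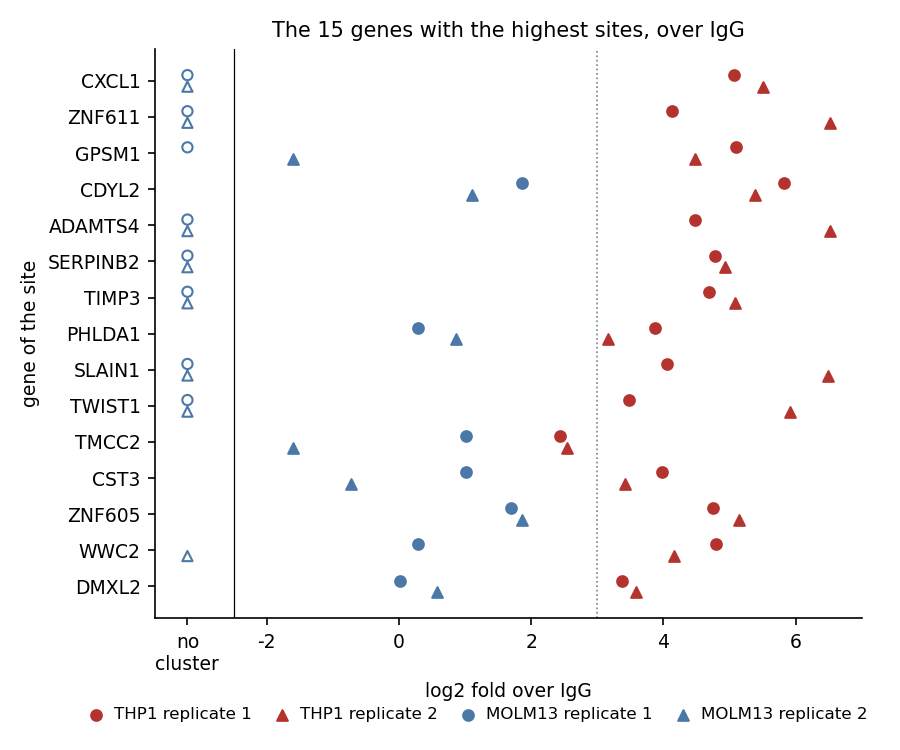
Log2 fold over IgG (x axis) at the highest site of the 15 genes ranked by the lower THP1 fold over input, for each immunoprecipitate; open symbols at the left mark a replicate with no listed cluster and the dotted line is the limit of 3. All THP1 symbols lie above all MOLM13 symbols of the same gene, and TMCC2 alone lies below 3 in both THP1 replicates.

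FCER1G, the signalling chain shared by Fc receptors, had 5 touching sites at chromosome 1, 161219054 to 161219221, which were all of its clusters in THP1 replicate 1. The first 3 share a replicate 2 peak. Their folds over input were between 3.39 and 4.23 and over IgG between 3.19 and 4.93, and the 5 were enriched over both controls in both replicates. MOLM13 replicate 1 had no cluster on FCER1G, and replicate 2 had 1, at −1.18 over IgG.

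GPSM1, a modulator of G protein signalling, had 7.35 and 6.49 against input and 5.10 and 4.48 against IgG (chromosome 9, 136359465 to 136359510), with a cluster in MOLM13 replicate 2 alone, at −1.60. RGS18, a GTPase activator of haematopoietic cells singled out after its values were seen, had 3.47 and 3.87 against input and 3.81 and 5.18 against IgG, where MOLM13 had 0.28 and −0.01 against IgG. The pseudokinase gene TRIB2 had 4.09 and 4.40 against input and 3.85 and 4.40 against IgG without a MOLM13 cluster at the site. PDE4B had 4.13 and 3.94 against input and 2.89 and 4.53 against IgG. HIPK2, a kinase gene with 3 sites, reached 4.25 and 4.48 against input and 5.0 and 5.06 against IgG, and its site had 1.95 and 3.13 in MOLM13.

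The remaining genes of the highest 15 were SLAIN1, WWC2, DMXL2 and TMCC2. SLAIN1, a microtubule factor, had 6.30 and 5.50 over input, 4.06 and 6.49 over IgG and no MOLM13 cluster. WWC2 had 4 sites, the highest with 5.04 and 5.16 against input and 4.80 and 4.16 against IgG, where MOLM13 replicate 1 had 0.28 against IgG and replicate 2 no cluster. DMXL2 had 5.03 and 5.91 against input and 3.37 and 3.59 against IgG, and 0.02 and 0.57 in MOLM13. TMCC2 had 5.26 and 5.55 over input, yet 2.43 and 2.55 over IgG. By folds over IgG, PSD3 also ranked among the highest 8 genes, with 5.04 and 5.22 and no MOLM13 cluster at the site.

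Against IgG, 161 of the 386 sites were enriched in THP1 replicate 1 (41.7%) and 210 in replicate 2 (54.4%), where all clusters gave 5.74% and 8.36%. In both replicates 131 were (33.9%, exact 95% interval 29.2 to 38.9; 4.85% of all clusters), and 146 (37.8%) were in neither. The immunoprecipitates are those the rule used, so these shares are a description. The share enriched in both THP1 replicates was 36 of 71 (50.7%) at sites with no MOLM13 cluster, 15 of 40 (37.5%) with a cluster in 1 MOLM13 replicate and 80 of 275 (29.1%) with clusters in both. Among the 1988 sites with a MOLM13 peak it was 63.3%. The difference between these classes was not tested.

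A log2 fold over IgG under 1 in both THP1 replicates was found at 2 sites, named here for that reason. CSPG4 had 3.63 and 4.59 over input but −2.75 and −2.37 over IgG, below the control in both replicates, and INO80E had 4.25 and 4.93 over input but 0.68 and 0.70 over IgG. With the highest overlapping cluster in place of the one sharing most bases, the replicate 2 value of INO80E was 2.93.

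The 275 sites with clusters in all 4 immunoprecipitates were compared over IgG. The rule asked for a THP1 peak and no MOLM13 peak in these same immunoprecipitates, which favours higher THP1 values, so the counts are a description and the shares among other clusters no test. Both THP1 folds lay above both MOLM13 folds at 176 sites (64.0%), where 31.6% of 50402 clusters with a cluster in the other 3 libraries did, and below both at 12 (4.36%, against 14.9%). With each list's median subtracted, 145 sites (52.7%) lay above, against 24.1% of clusters. The median fold over IgG was 3.0 and 3.28 in THP1 and 2.11 and 1.86 in MOLM13. The median difference of line means was 1.24 (THP1 minus MOLM13), and 0.37 at the 1982 sites with a MOLM13 peak and clusters in both its replicates. Replicate 2 minus replicate 1 had a median of 0.24 in THP1 over all 386 sites, with quartiles of −0.35 and 0.88. In MOLM13 the median was −0.31 over the 275 sites, with quartiles of −1.01 and 0.44. Signed differences cancel, so these medians give an offset and not the spread between replicates.

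**Figure D5:**
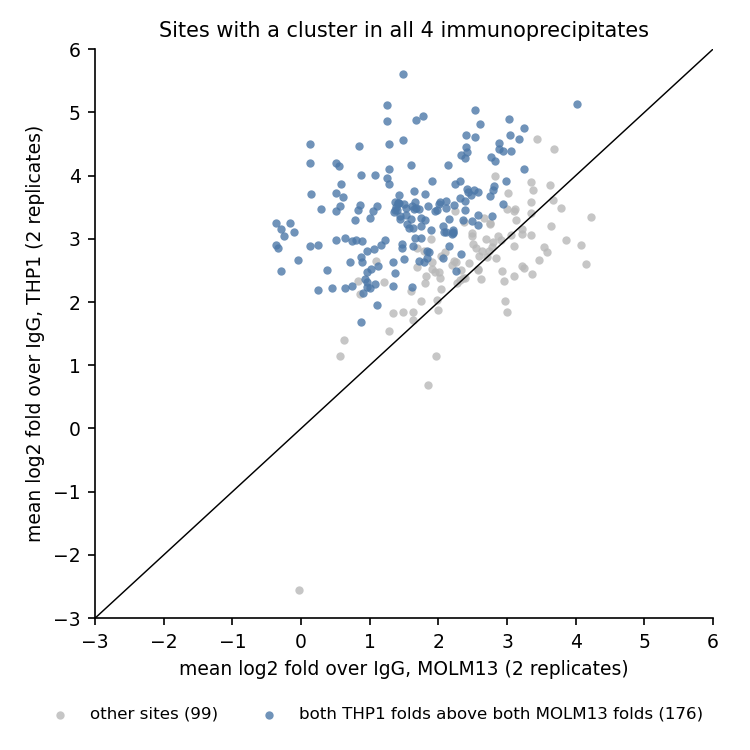
Mean log2 fold over IgG of the 2 MOLM13 replicates (x axis) and the 2 THP1 replicates (y axis) at the 275 sites with a cluster in all 4 immunoprecipitates, with the line of equal folds. Blue marks the 176 sites where both THP1 values exceed both MOLM13 values; the point at the bottom is CSPG4.

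The MOLM13 values covered the range from no enrichment to clear enrichment. The mean MOLM13 fold over IgG was below 0 at 10 of the 275 sites, from 0 to 1 at 42, from 1 to 2 at 93, from 2 to 3 at 92 and at least 3 at 38. Both MOLM13 folds were under 1 at 23 sites, of which 6 were enriched over IgG in both THP1 replicates. RYK, a Wnt receptor, had 3.61 and 3.77 over IgG in THP1 and 0.70 and 2.16 in MOLM13. MAPRE3, a microtubule end-binding protein gene with 3 sites, had 3.70 and 3.76, and 1.28 and −0.28.

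Over IgG, MOLM13 was enriched in at least 1 replicate at 52 of the 386 sites (13.5%, against 5.55% of all clusters of THP1 replicate 1), and in both at 12 (3.11%, against 2.12%). These sites met the limits over IgG in MOLM13 and had no MOLM13 peak over input. By replicate 1 alone the share was 9.07% (5.11% of all its clusters) and by replicate 2 alone 7.51% (2.49%). STAU2, a double-stranded RNA-binding protein gene, was the highest of the 12 by the lower THP1 fold over input, with 4.15 and 4.38 over input in THP1 and, over IgG, 3.91 and 2.79 in THP1 and 4.56 and 3.89 in MOLM13. SSR1, a subunit of the translocon-associated complex, had 2.41 and 2.80 over IgG in THP1 and 4.53 and 3.78 in MOLM13, so its MOLM13 values were the higher. The polyamine transporter gene ATP13A3 had 4.30 and 5.98 in THP1 and 3.95 and 4.10 in MOLM13, STC2 3.21 and 4.33 against 3.02 and 3.72, and MED1, a Mediator subunit, 2.80 and 3.60 against 3.16 and 4.13. ZKSCAN8 had 2.56 and 2.77 against 3.76 and 3.17. For STAU2, STC2 and MED1 the values of the lines overlapped, for ATP13A3 those of THP1 were higher and for ZKSCAN8 those of MOLM13.

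Genes of mRNA regulators had clusters at the site in all 4 immunoprecipitates. CELF2 had 5.09 and 4.61 against input and 3.85 and 4.60 against IgG in THP1, where MOLM13 had 2.91 and 2.74 against IgG (chromosome 10, 11329928 to 11330023). ELAVL1, which binds AU-rich elements and stabilises mRNA, had 3.53 and 3.65 over input, and over IgG 5.09 and 4.06 in THP1 against 2.75 and 3.60 in MOLM13. QKI had 4.25 and 3.60 against input and 2.42 and 2.6 against IgG, where MOLM13 had 1.83 and 3.33. DCP2, the decapping enzyme gene, had 3.12 and 3.13 against input and 3.46 and 3.13 against IgG, where MOLM13 had 3.51 and 2.76. ELAVL1, QKI and DCP2 had another 3' UTR peak in MOLM13, and the 2 lines overlapped over IgG for QKI and DCP2.

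Several genes had sites beside a peak of both lines. UHMK1, a kinase gene with 5 sites, had 3 further THP1 3' UTR sites that met a MOLM13 peak. Its highest site of THP1 alone had 4.95 and 3.88 against input and 4.29 and 5.46 against IgG, where MOLM13 had 1.51 and 1.84 against IgG. PPP1R15B, which directs dephosphorylation of a translation initiation factor, had 4 sites and 1 shared one, with 3.98 and 3.75 over input, 5.32 and 3.33 over IgG and 2.28 and 2.37 in MOLM13. SPRY4, SMAD5, SMAD2 and CDC42EP3 likewise had another MOLM13 3' UTR peak on the gene, and RHOB did not. The folds over input of these genes lay between 3.02 for SMAD2 in replicate 2 and 4.40 for CDC42EP3 in replicate 1. Over IgG in THP1, RHOB had 0.18 and 2.11, SMAD2 2.49 and 2.02 and SPRY4 2.89 and 2.65, all below 3. SMAD5 had 2.95 and 4.77 and CDC42EP3 3.16 and 2.93. RHOB had 1.16 and −0.01 over IgG in MOLM13, so the lines overlapped there. A MOLM13 peak over input lay within 100 bases of 39 of the 386 sites (10.1%).

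Genes of the pathway lists were counted by whether they held such a site. Of 21 cytokine, chemokine and receptor genes with a peak in any table, 5 did (23.8%), CXCL1, CXCL2, CCL2, IL6R and CSF2RB, where 4.56% of all 6881 named genes did, and 7 held a site of both lines. Of 15 immediate early genes 4 did (26.7%), with 5 holding a site of both lines. Of 22 reported ZFP36-family targets 3 did (CXCL1, CXCL2 and PTGS2), while 16 held a site of both lines and 2 a site of MOLM13 alone. The counts were 2 of 13 for myeloid maturation markers (TIMP3 and CST3), 3 of 21 for other AU-rich and UTR binders, 2 of 19 for signalling feedback genes, 2 of 21 for the TGF-beta and activin pathway, 2 of 23 for adhesion and cytoskeleton genes, 1 of 19 for monocyte transcription factors and 1 of 26 for mRNA decay genes. None was found among 15 genes of NF-kB and innate sensing, 16 apoptosis regulators, 30 cell cycle regulators, 19 hypoxia and metabolism genes, 21 leukaemia stemness and chromatin genes and the 3 TIS11 genes. Of the 30 cell cycle regulators 9 held a 3' UTR site of MOLM13 alone, the highest such count of the lists. Of all 6881 named genes 255 did, and 1243 held a site of both lines. The base of 6881 includes genes without a THP1 3' UTR peak, which could not hold a site of THP1 alone. Among all genes with a THP1 3' UTR peak, 314 of 2307 held one. On that base the counts were 5 of 13 for cytokine, chemokine and receptor genes and 4 of 12 for immediate early genes. For reported ZFP36-family targets the count was 3 of 20, near the share of all genes. On the narrower base, myeloid maturation markers gave 2 of 10 and other AU-rich and UTR binders 3 of 10. Signalling feedback genes gave 2 of 14, the TGF-beta and activin pathway 2 of 12 and adhesion and cytoskeleton genes 2 of 12. Monocyte transcription factors gave 1 of 15 and mRNA decay genes 1 of 14. The lists without a site had small bases, 10 for NF-kB and innate sensing, 11 for apoptosis and 15 for cell cycle. Hypoxia and metabolism had 14, leukaemia stemness and chromatin 12 and TIS11 genes 3. The lists were not tested.

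The sites had a median length of 80 bases (11 to 163), and those with a MOLM13 peak 76. The median distance to the 3' end of the RefSeq gene was 1532.5 bases, against 1119.5 for the sites with a MOLM13 peak, and 151 of 386 (39.1%) lay within 1000 bases of it, against 47.7%. At the sites with no MOLM13 cluster the median distance was 576 bases. Gene ends differ between transcripts, and these differences were not tested. Of the 314 genes, 267 had 1 site, 32 had 2 and 15 had 3 or more. Touching sites can share a replicate 2 peak, so neighbouring sites are not separate measurements.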

How the data were processed

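The labels describe 11 eCLIP libraries, and the files used here hold comparisons per immunoprecipitate, not pooled. Per the submitters' processing notes, cutadapt 1.14, STAR 2.5.0c, Picard 2.6.0 and edgeR were used, with builds hg19, GRCh37 and hg38 named without a role. No source used here gives the peak caller, the test that yields p or how folds were scaled. The authors deposited a log2 fold and a −log10 p, capped at 400, for each cluster over IgG and each peak over input. The input tables hold no value below 3.

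Each IgG list was tied to the input table of the same line with which it shared most coordinates (14396 to 19306 peaks). Where several intervals overlapped a site, the one sharing most bases gave its value. Same-strand overlap was computed with Python 3.11.15, pandas 2.3.3 and numpy 2.4.6, checked on simulated intervals, and intervals are exact (Clopper-Pearson, scipy 1.17.1). All 314 genes matched the RefSeq table of GRCh38.p14, 8 under another current symbol, and every site lay inside its gene. No test across samples was run, since the rule chose the sites from these libraries, and depth is unknown. Named genes were the 15 highest over input, the 8 highest with clusters in both MOLM13 replicates, the 8 highest with none, the 8 highest over IgG, the 5 with most sites, up to 4 per list, up to 6 enriched over IgG in both MOLM13 replicates (by fold and p), and the 4 nearest the limits on each side. The sites and lists were chosen with earlier results of these data known. Sequence of the sites was not analysed here. Alternatives were other overlaps, distances, thresholds, centring and left-out replicates.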

Additional observations from a re-analysis of the deposited data

How the results depend on the processing

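With a log2 fold over input of at least 4, 91 sites remained in the count, 53.8% of them with clusters in both MOLM13 replicates and 30.8% with none. Choosing the sites without 1 replicate gave 557 to 783. Of the original 386 sites, with values read from a single replicate, 73.1% to 79.8% had a MOLM13 cluster, 20.2% to 26.9% had none, 41.7% to 54.4% were enriched over IgG in THP1 and 7.51% to 9.07% in MOLM13. An IgG limit of 2 or 4 gave 48.2% or 10.9% enriched in both THP1 replicates and 19.4% or 3.63% in a MOLM13 replicate. The site count was 403 with an overlap of 50% of the shorter peak, 275 with a −log10 p of at least 5, 347 with no MOLM13 peak within 100 bases and 258 with no MOLM13 3' UTR peak on the gene. Subtracting list medians gave 29.5% in THP1 and 14.2% in MOLM13, and the highest overlapping cluster, chosen after seeing the data, 34.7% and 13.5%. The AU-rich motif search was not run, since no genome of the build was used here. No paired analysis was possible because the files hold the authors' comparisons per immunoprecipitate and no test across samples was run. The depth of the libraries is unknown, so a site without a listed MOLM13 cluster has no lower limit of detection.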

Other observations

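The mirror set, 3' UTR sites of MOLM13 alone, held 292 peaks. Enrichment over IgG in both replicates of the line they were chosen in was found at 71 of them (24.3%), and in both replicates of THP1 at 16 (5.48%). For the sites of THP1 alone the corresponding shares were 33.9% in THP1 and 3.11% in MOLM13. The 2 sets were not compared by a test, and the median fold over IgG of all clusters differs between the lists. The share of all clusters enriched over IgG also differs, at 5.74% and 8.36% in THP1 and 5.11% and 2.49% in MOLM13. A share enriched in both replicates is given above for all clusters of THP1 replicate 1, and none for those of MOLM13. The shares of the 2 sets therefore cannot be read as a difference between them.

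At 16 of the sites of THP1 alone both MOLM13 log2 folds over IgG were at least 3, and 12 of these also reached a −log10 p of 3 in both replicates. Besides those named above, the 12 included POLR3D, DDX46, ME2, LAT2, NEMP1 and ATP6V1G1, listed after their values were seen. LAT2, an adaptor of immune receptor signalling, had 3.52 and 3.45 over IgG in THP1 and 3.29 and 4.28 in MOLM13.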
